A study of Homo sapiens with 4 samples.

Results

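Polyamine synthesis and breakdown were followed here through 10 genes in MM.1S, an established human multiple myeloma cell line. The genes were taken from the pathway by name, but with earlier results of these data known, so the choice was not blind to the data. Every probe set (a group of array probes read as 1 value) annotated to 1 of them alone was used, 22 probe sets in all. 1 further probe set, annotated to SAT1 and to a second gene, was left out. The 10 genes are part of 19775 genes with a probe set, of which 12446 counted as measured, meaning that the mean of the gene's brightest probe set over the arrays was above the median of all probe sets. All 10 counted as measured, and that brightest probe set stands for the gene unless another is named. The study asked how the profile of cells given MLN4924 differed from that of control cells. MLN4924 inhibits the NEDD8-activating enzyme, on which cullin-RING ubiquitin ligases depend. 3 cultures received 250 nM of it, for 8, 16 or 24 h, and the control culture, with no stated time, received the vehicle DMSO.

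Each of the 4 groups had 1 array, so the groups could not be tested against each other, and a difference is the reading of 1 array set against another. The number of arrays limits the precision, and the 3 comparisons with the control share its single array. Values are the deposited intensities, on a linear scale, and a gene is said to read its intensity on each array. A difference is given as log2 of the ratio of 2 arrays, positive where the treated array is brighter. As a stand-in for technical spread, probe sets of the same gene had a pooled SD of 0.16 (log2) for the 8 h difference, 0.19 at 16 h and 0.18 at 24 h, over 5719 genes. That spread pools bright and dim genes alike, so it can be too wide or too narrow for a single gene. At 8 h, for example, the differences of the OAZ1 probe sets lay 0.014 (log2) apart and those of PAOX up to 0.41. The pooled SD also leaves out the spread between cultures, which was not measured. All 10 plasma cell and myeloma markers listed (such as SDC1, TNFRSF17 and IRF4) counted as measured, with a summed intensity highest on the control array (63356) and lowest at 8 h (52428). Of markers of other cells, measured were 3 of 6 for T and NK cells, 1 of 5 with a probe set for myeloid cells, 1 of 6 for fibroblasts and 2 of 3 with a probe set for erythroid cells. Summed over all listed markers with a probe set, measured or not, these ranged over the arrays from 476 to 503, 264 to 292, 591 to 600.4 and 1178 to 1403, the last mostly HBB. CD14, LYZ, CD3D and LUM were among the markers not counted as measured. Their part in the results was not tested.

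The polyamines putrescine, spermidine and spermine are small positively charged molecules that bind nucleic acids and are needed for growth and translation. Ornithine decarboxylase (ODC1) makes putrescine. The enzyme encoded by AMD1 supplies the aminopropyl donor, and the spermidine and spermine synthases, SRM and SMS, add it. Breakdown runs through the acetyltransferase SAT1 and the oxidases PAOX and SMOX. Antizymes (OAZ1, OAZ2) bind ornithine decarboxylase and send it to the proteasome without ubiquitin, and the antizyme inhibitor AZIN1 binds antizymes in turn. Much of this control acts on translation and protein stability, which expression arrays do not measure. Genes of polyamine synthesis are among the known targets of the transcription factor MYC, which binds the E-box sequence CACGTG. A part of MYC in the values below was not tested.

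ODC1 and SRM were dimmer than the control late in treatment, and SAT1 was brighter at each time. OAZ2 was brightest at 16 h. At 8 h no member had passed 1.3-fold (0.38 on the log2 scale) in either direction, where 3.41% of measured genes were that much higher and 4.16% that much lower. At 16 h, 2 of 10 members were at least 1.3-fold higher (SAT1 and OAZ2), against 8.16% of measured genes, and 2 of 10 lower (ODC1 and SRM), against 7.44%. At 24 h, 1 of 10 was higher (SAT1), against 8.17%, and 2 of 10 lower (the same 2 as at 16 h), against 7.39%. With the arrays centred on their medians, the background was 2.47% higher and 5.66% lower at 8 h. It was 6.81% and 8.83% at 16 h, and 6.2% and 9.49% at 24 h, so more genes were then lower than higher at these times too. No member was 2-fold from the control at any time, where 0.249%, 0.675% and 0.707% of measured genes were at 8, 16 and 24 h. The median difference of the 10 members was 0.037 (log2) at 8 h, -0.084 at 16 h and -0.14 at 24 h, against 0.0071, 0.026 and 0.016 over all measured genes. In a bulk sample, fewer cells that make a transcript and less of it per cell cannot be told apart.

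**Figure D1:**
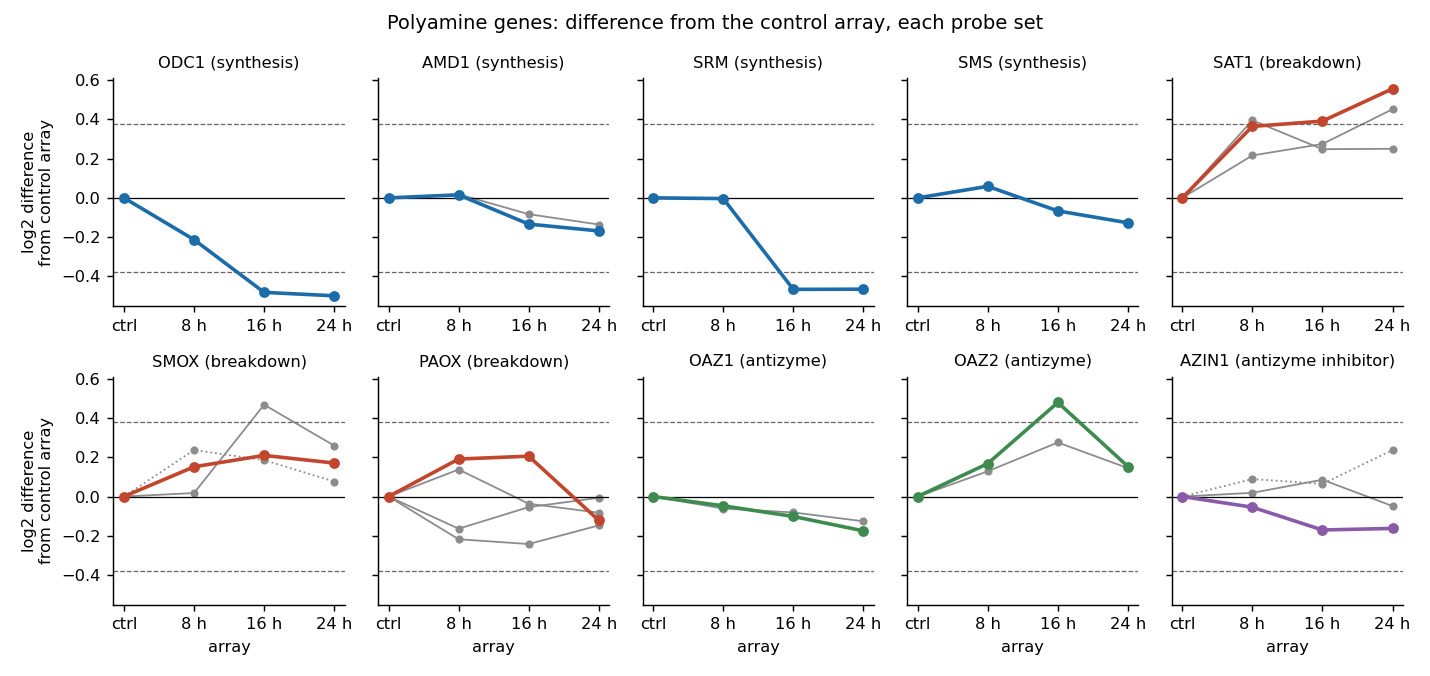
Log2 difference from the control array (vertical axis) on the control, 8, 16 and 24 h arrays (horizontal axis) for each of the 22 probe sets, 1 panel per gene, where thick coloured lines are the probe set that stands for the gene, grey lines its other probe sets, dotted where not counted as measured, and dashed lines mark 1.3-fold. ODC1 and SRM reach -0.50 and -0.47 at 24 h, SAT1 reaches 0.56, and the OAZ2 line peaks at 0.48 at 16 h.

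Each of the 4 genes of synthesis was below the control at 16 h and at 24 h, in 5 of 5 probe sets, and also after the arrays were median-centred or quantile-normalized. Their median difference was -0.30 (log2) at 16 h and -0.32 at 24 h, and their range at 24 h ran from -0.50 to -0.13. At 8 h, 2 were above and 2 below the control. At the late times only ODC1 and SRM differed by more than the pooled SD between probe sets. AMD1 (-0.13 at 16 h and -0.17 at 24 h) and SMS (-0.067 and -0.13) lay within it. Over all measured genes the 25th percentile was -0.15 at both times, so values near those of AMD1 and SMS were common. The shared sign is thus no measure of a joint fall of the 4 genes.

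ODC1, the enzyme that opens the pathway, read 9629 in the control, then 8308 (8 h), 6897 (16 h) and 6814 (24 h). The control was the brightest of the 4 arrays, and the 16 and 24 h arrays were close to each other. The differences from control were -0.21, -0.48 and -0.50 (log2), so the gene was 1.40-fold lower at 16 h and 1.41-fold lower at 24 h. Of the 12446 measured genes, 1629 had a more negative difference at 8 h, 550 at 16 h and 443 at 24 h. At all 3 times the difference was larger in size than the pooled SD between probe sets of a gene. ODC1 has a single probe set on the array, so no second one bears on these values.

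SRM, which makes spermidine from putrescine, read 4371 in the control, then 4360.3 (8 h), 3164 (16 h) and 3166 (24 h). The arrays fell into a bright pair (control and 8 h) and a dim pair (16 and 24 h). The difference from control was -0.0036 (log2) at 8 h, with the sign turned (0.0042) after quantile normalization, and -0.47 at both later times, 1.38-fold lower. The whole of that difference lay between 8 and 16 h, at -0.46, and between 16 and 24 h it was 0.00099. SRM was the 1 member at least 1.3-fold lower at 16 h than at 8 h, against 5.66% of measured genes, and no member was that much higher, against 7.02%. For ODC1 the same step was -0.27, after -0.21 by 8 h. SRM too has a single probe set.

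Promoter windows, 250 bases before to 50 after an annotated start, were held for 7 of the 10 members, in 10 windows (RefSeq, GRCh38.p14). SMOX, PAOX and AZIN1 had none in the table. 3 motifs were searched, picked from background knowledge of such promoters with earlier results of these data known. CACGTG, which reads the same on both strands, occurred in the windows of ODC1 and SRM and in none of those of AMD1, SMS, SAT1, OAZ1 and OAZ2. ODC1 (chr2:10439968-10448327, minus strand) has 2 annotated starts 315 bases apart, and the window of the downstream start holds CACGTG 2 times, at chr2:10448036-10448041 and chr2:10448002-10448007. SRM (chr1:11054589-11060018, minus strand) holds it once, 199 bases before its start, at chr1:11060212-11060217. The stretches below run 5′ to 3′ on the gene's strand, with CACGTG in capitals. They are shown for ODC1 (chr2:10447993-10448112, around the downstream start) and SRM (chr1:11060019-11060268), the members with the match, and for SAT1 (chrX:23783053-23783172, plus strand), which differed from the control in the other direction.
ODC1: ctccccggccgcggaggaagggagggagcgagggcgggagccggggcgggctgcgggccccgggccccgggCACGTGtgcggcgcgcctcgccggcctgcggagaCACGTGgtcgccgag
SRM: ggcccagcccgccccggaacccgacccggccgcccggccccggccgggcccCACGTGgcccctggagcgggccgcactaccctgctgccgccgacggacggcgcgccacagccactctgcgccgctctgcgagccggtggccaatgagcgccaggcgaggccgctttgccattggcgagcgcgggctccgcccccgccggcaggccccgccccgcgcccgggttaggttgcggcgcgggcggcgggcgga
SAT1: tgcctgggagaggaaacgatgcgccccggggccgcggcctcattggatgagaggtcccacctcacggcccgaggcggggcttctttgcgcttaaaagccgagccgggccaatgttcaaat

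A match to these letters is a description and not a shown binding site. CACGTG occurred in 7.26% of all 35116 windows and in the windows of 8.78% of genes. Among measured genes with a window, the 1250 that held it had a median difference of 0.0013 (log2) at 16 h and the 8788 without it 0.027. At least 1.3-fold lower at 16 h were 7.92% of the former and 7.61% of the latter, and at 24 h 8.4% and 7.52%. The shares differ by less than 1 percentage point at each of these times. TGACNNNGC, the core of the antioxidant response element bound by NRF2, was searched on both strands and occurred once, in the window of the upstream ODC1 start, on the strand opposite to the gene. It is in 13.35% of all windows and the windows of 16.06% of genes, and the SAT1 window does not hold it. The third motif, TATAAA (the core of the TATA box), was searched on both strands and occurred in 1 of the 10 member windows, that of OAZ1, 6 bases after the start. It is in 11.5% of all windows.

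AMD1, which encodes S-adenosylmethionine decarboxylase, read 3159.9 in the control, then 3194 (8 h), 2881 (16 h) and 2812 (24 h). The later arrays were the dimmer ones, at -0.13 and -0.17 (log2), within the pooled SD between probe sets. The 8 h difference of 0.015 turned to -0.029 with median-centred arrays. A second probe set gave -0.083 at 16 h and -0.14 at 24 h.

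SMS, the spermine synthase, read 976 in the control, then 1017 (8 h), 932 (16 h) and 894 (24 h). Its differences of 0.059, -0.067 and -0.13 (log2) were the smallest of the 4 genes of synthesis at both late times, and each lay within the pooled SD. It has 1 probe set.

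**Figure D2:**
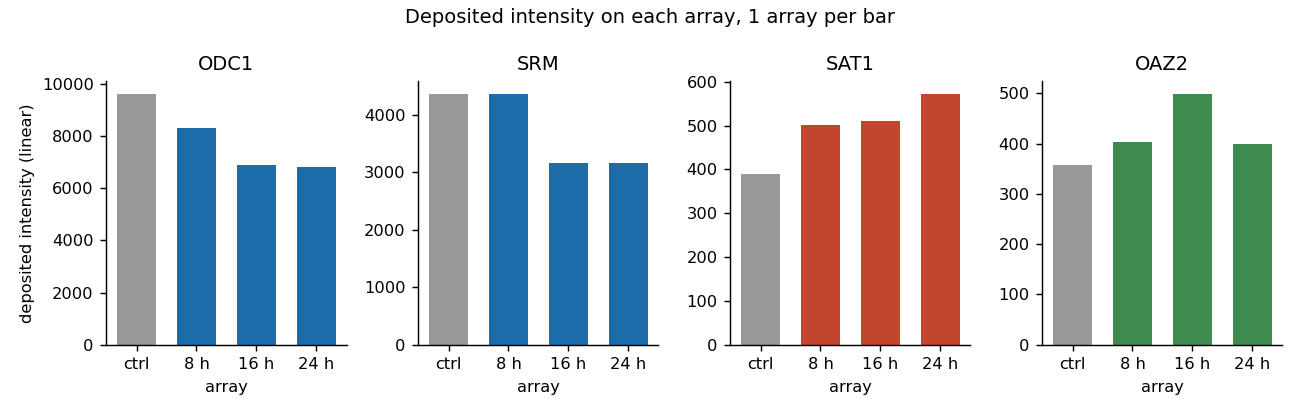
Deposited intensity, linear and starting at 0 (vertical axis), on each of the 4 arrays (horizontal axis), for the members past 1.3-fold from control at any time, with 1 array per bar (grey for the control) and so no error bars. ODC1 is highest on the control array (9629), SRM steps down between 8 h (4360.3) and 16 h (3164), SAT1 is highest at 24 h (573), and OAZ2 at 16 h (499).

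Of the 3 genes of breakdown, SAT1 stood farthest from the control. SAT1, the acetyltransferase whose products leave the cell or are oxidised, read 389.7 in the control, then 502 (8 h), 511 (16 h) and 573 (24 h). Each treated array was brighter than the control, and the 24 h array was the brightest. The differences were 0.36, 0.39 and 0.56 (log2), that is 1.29-fold, 1.31-fold and 1.47-fold higher. At 24 h, 410 measured genes had a more positive difference, at 16 h 952 and at 8 h 476. Its other probe sets were also above the control at each time. They gave 0.40, 0.25 and 0.25 in one and 0.22, 0.27 and 0.45 in the other, so the sign was shared by 3 of 3 probe sets and the size and the time of the highest value were not. The median of the 3 differences was 0.36 at 8 h and 0.27 at 16 h, both under 1.3-fold, and 0.45 at 24 h, past it. With median-centred arrays the brightest probe set stood at 0.36 at 16 h. All 3 SAT1 probe sets are of the _s_at type, which can bind more than 1 transcript.

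SMOX, the oxidase that turns spermine back into spermidine, read 517 in the control, then 574 (8 h), 597 (16 h) and 582 (24 h). The treated arrays lay above the control and close to each other, at 0.15, 0.21 and 0.17 (log2), about the size of the pooled SD. A dimmer probe set read 94.2, 95.4, 130.3 and 113, or 0.018, 0.47 and 0.26, and so passed 1.3-fold at 16 h. A further SMOX probe set did not count as measured and stood at 0.24, 0.19 and 0.076. All 3 were above the control at each time.

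PAOX, which oxidises acetylated polyamines, was read by 4 measured probe sets that did not share a direction. The one that stands for the gene read 162 in the control, then 185 (8 h), 187 (16 h) and 149 (24 h), or 0.19, 0.21 and -0.12 (log2). The other 3 ranged from -0.22 to 0.14 at 8 h and from -0.24 to -0.037 at 16 h. All 4 were below the control at 24 h, by at most 0.15 in size. No direction is given for PAOX at 8 or 16 h.

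The antizyme genes differed from each other. OAZ1 read 19112 in the control, then 18494 (8 h), 17813 (16 h) and 16929 (24 h). The array order was the same in its second probe set (15129, 14499, 14303 and 13862), with the control brightest and 24 h dimmest. The differences of -0.047, -0.10 and -0.17 (log2) in the first and -0.061, -0.081 and -0.13 in the second lay within the pooled SD.

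OAZ2 read 358 in the control, then 402 (8 h), 499 (16 h) and 398 (24 h). The 16 h array was the brightest, and the 8 and 24 h arrays were close to each other and above the control. The differences were 0.17, 0.48 and 0.15 (log2), so OAZ2 was 1.39-fold higher at 16 h. Its second probe set had the same order, with 171 in the control, then 186.5 (8 h), 206 (16 h) and 189 (24 h), but a smaller difference at 16 h, 0.28, under 1.3-fold. With the median over both probe sets it was 0.377, just under 1.3-fold. From 16 to 24 h the gene stood at -0.33, and 282 of the measured genes were more negative in that step. No member was 1.3-fold higher or lower in the step from 16 to 24 h, against 2.92% and 1.17% of measured genes. OAZ2 was 1 of 56 measured genes (0.45%) at least 0.3 (log2) brighter on the 16 h array than on each of the other 3. A further 202 genes (1.62%), no member among them, were that much dimmer on it alone. The 0.3 cutoff was not one of the planned folds, and OAZ2 passed it narrowly, at 0.31 from 8 to 16 h and -0.33 from 16 to 24 h. Its second probe set did not reach it, at 0.15 and -0.13. The count is thus no measure of how rare the OAZ2 pattern is. Whether the 16 h array as such has a part in the OAZ2 value was not tested.

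AZIN1, the antizyme inhibitor, resembles ornithine decarboxylase but has no enzyme activity. Its intensities were 1416 in the control, then 1364 (8 h), 1259 (16 h) and 1265 (24 h), or -0.054, -0.17 and -0.16 (log2), within the pooled SD. A second probe set read 1148, 1163, 1218 and 1109.96, or 0.019, 0.085 and -0.049. A further, dim probe set did not count as measured and stood at 0.089, 0.064 and 0.24. The measured probe sets differed in sign at 8 and 16 h, and at 24 h only the one not counted as measured was above the control. No direction is given for AZIN1.

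**Figure D3:**
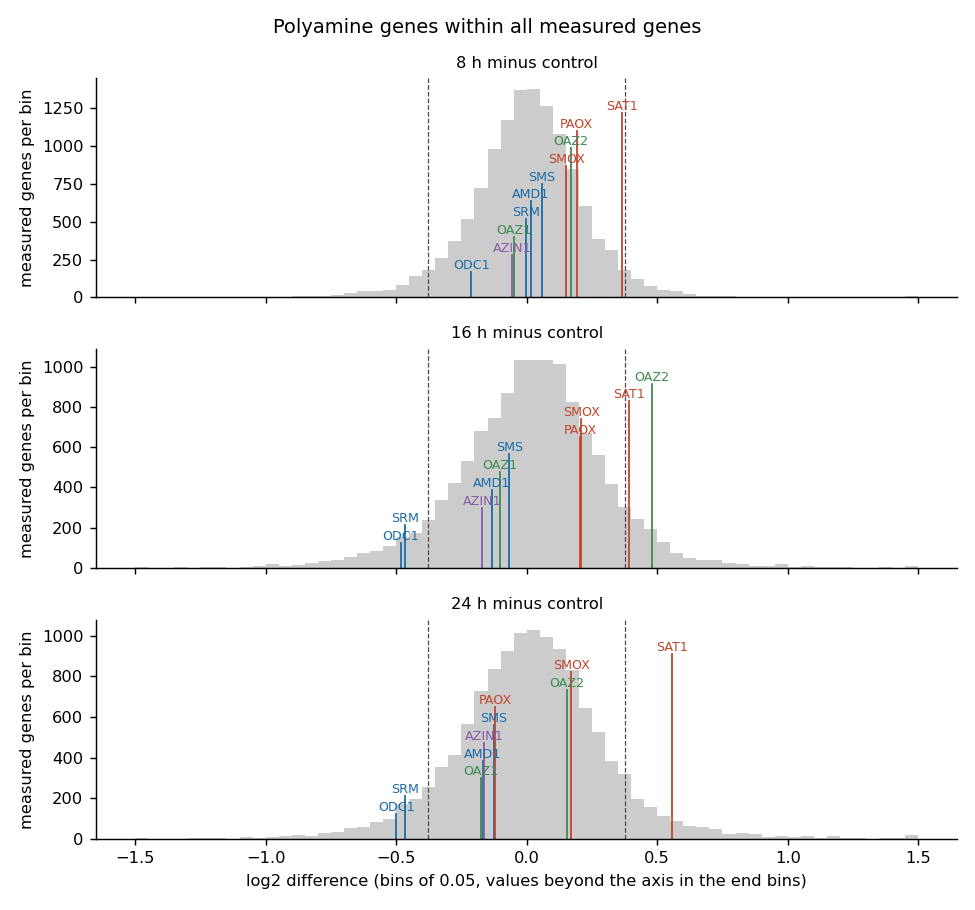
Number of measured genes (vertical axis) by log2 difference from control (horizontal axis) at 8, 16 and 24 h, in grey, with the 10 polyamine genes as coloured lines (blue synthesis, red breakdown, green antizymes, purple antizyme inhibitor), whose height only separates the names, and dashed lines at 1.3-fold. No member is past those lines at 8 h, 4 are at 16 h and 3 at 24 h.

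The genes with the pattern nearest to a member were found by the root mean square distance over the 3 differences from control, from 4 arrays. For SAT1 they were TAGLN (distance 0.014), OSBPL10 (0.022) and LARP6 (0.026). TAGLN had 0.36, 0.38 and 0.58 (log2). For ODC1 they were QDPR (0.017), ABCB10 (0.023) and SLC10A7 (0.025), with QDPR at -0.22, -0.46 and -0.48.

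A further 42 genes around the pathway were listed in 5 groups, of which 39 had a probe set and 29 were measured. At 8 h, 1 of 29 was at least 1.3-fold higher (3.45%) and 1 lower (3.45%). At 16 h there were 3 higher and 3 lower (10.3% each), and at 24 h 4 higher (13.8%) and 3 lower (10.3%). Of all measured genes, 3.41% were that much higher and 4.16% that much lower at 8 h. At 16 h these shares were 8.16% and 7.44%, and at 24 h 8.17% and 7.39%. The 5 groups hold 3 to 9 measured genes each, so a count within 1 group is no measure of that group.

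Spermidine is used to make hypusine, a modified lysine of the translation factor eIF5A. EIF5A read 10554 in the control, then 9521 (8 h), 8478 (16 h) and 8455 (24 h). It stood at -0.32 (log2) at both late times, just under 1.3-fold, and its 3 probe sets lay between -0.33 and -0.24 there. EIF5A2, its paralogue, stood at 0.30, -0.19 and 0.45, with -0.010 at 24 h in another measured probe set. DOHH, the second enzyme of hypusine formation, stood at 0.35, 0.18 and 0.031. Its probe sets not counted as measured stood at -0.021 and -0.012 at 8 h and above the control later. None of the 4 measured genes of this group was 1.3-fold lower, and EIF5A2 was the 1 that was higher, at 24 h. Of all measured genes, 8.17% were that much higher at 24 h.

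Among genes of arginine and ornithine supply, SLC7A1, which imports arginine, read 1486 in the control, then 1639.9 (8 h), 1070.1 (16 h) and 997 (24 h). It stood at 0.14, -0.47 and -0.58 (log2). Of its 3 other measured probe sets, 2 lay between -0.41 and -0.34 at the late times, and 1, much dimmer, at 0.63, 0.24 and 0.31. ASL, which releases arginine from argininosuccinate, stood at -0.23, -0.51 and -0.59. SLC25A15, the mitochondrial ornithine carrier, stood at 0.21, 0.43 and 0.34. OAT, ornithine aminotransferase, stood at 0.40 at 24 h and was named after its value was seen. In this group 2 of 7 measured genes, ASL and SLC7A1, were 1.3-fold lower at both late times. Of all measured genes, 7.44% were that much lower at 16 h and 7.39% at 24 h. The 1 gene that was 1.3-fold higher differed between the times, SLC25A15 at 16 h and OAT at 24 h. The shares of all measured genes were 8.16% and 8.17%.

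In the methionine cycle and salvage, which supply S-adenosylmethionine and recover the by-product of spermidine and spermine synthesis, MAT2B, a regulatory subunit of the enzyme that makes S-adenosylmethionine, stood at 0.19, 0.45 and 0.35 (log2). MRI1, of salvage, stood at 0.39, 0.43 and 0.27, with 0.11, -0.013 and 0.11 in another probe set. MTR, methionine synthase, stood at -0.45, -0.28 and -0.16. Its second probe set was below the control too, at -0.14, -0.23 and -0.064, but under 1.3-fold at each time. ENOPH1, another salvage enzyme, stood at -0.41 at 16 and 24 h and was named after its value was seen. Of 9 measured genes 1 was higher and 1 lower at 8 h, 2 and 1 at 16 h and 0 and 1 at 24 h. Over all measured genes, 3.41% were higher and 4.16% lower at 8 h. These shares were 8.16% and 7.44% at 16 h, and 8.17% and 7.39% at 24 h.

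In polyamine transport, 1 of 6 measured genes passed 1.3-fold at any time, SLC18B1, a vesicular polyamine transporter, at -0.22, 0.29 and 0.44 (log2). ATP13A3, of polyamine uptake, stood at 0.23, -0.22 and -0.18, and SLC22A2, an organic cation transporter, at 0.29, 0.090 and -0.12. Of 3 measured genes of further breakdown and regulation, SAT2, a relative of SAT1, was higher at 24 h, at -0.056, 0.35 and 0.43. SLC18B1 and SAT2 passed 1.3-fold at 24 h alone, where 8.17% of all measured genes were that much higher. AOC1, diamine oxidase, stood at 0.056, -0.38 and -0.087, just under 1.3-fold at 16 h, and AZIN2, a second antizyme inhibitor, at 0.16, 0.15 and 0.071.

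**Figure D4:**
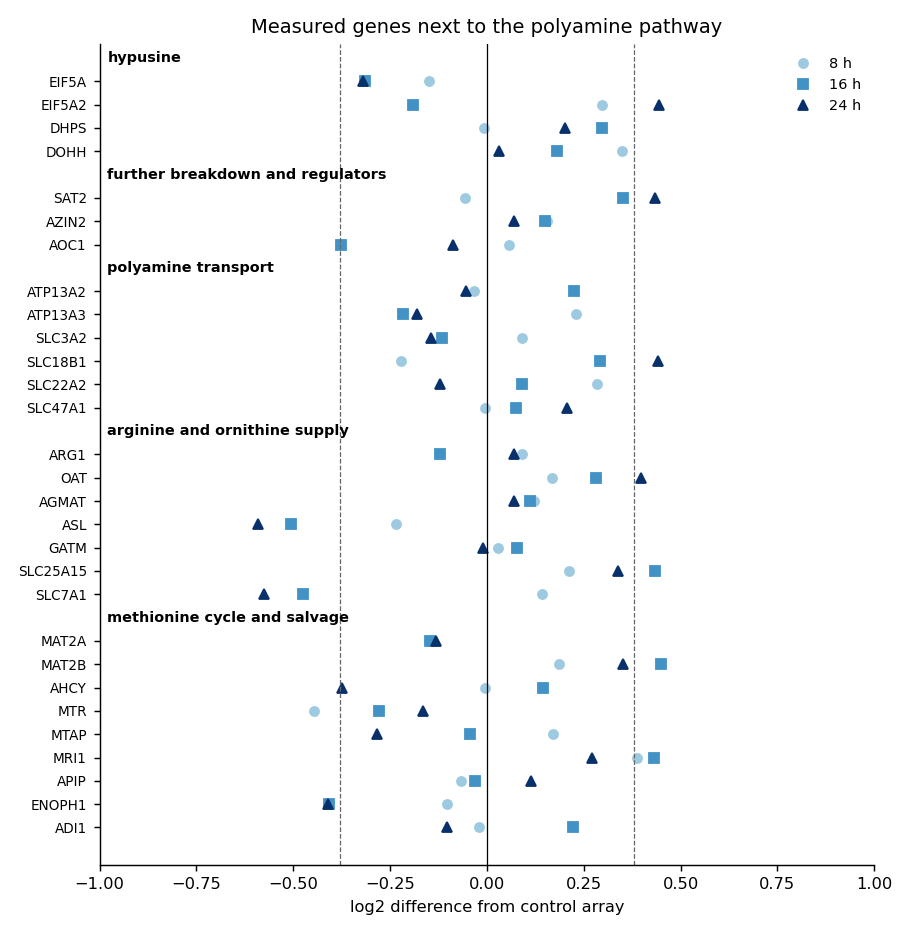
Log2 difference from the control array (horizontal axis) at 8 h (circles), 16 h (squares) and 24 h (triangles) for the 29 measured genes around the pathway, by group (vertical axis), with dashed lines at 1.3-fold. ASL and SLC7A1 have the lowest values, -0.59 and -0.58 at 24 h, and MAT2B the highest, 0.45 at 16 h.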

How the data were processed

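Total RNA of MM.1S cells was extracted with Trizol, turned into biotin-labelled cRNA and read on Affymetrix arrays, per the labels' protocols. The values deposited by the authors are linear intensity units, and how they were summarised and normalized is not given in the sources used here. The array medians differed by at most 0.0483 (log2), so no normalization was added. Median centring still shifted the shares of genes past 1.3-fold, as given above. Groups came from the sample titles, with 1 array each.

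Of 54675 probe sets, 41097 were annotated to 1 gene. The 25th percentile of all values (48.4) served as a floor, which no member value fell under, and log2 was taken with Python 3.11.15 and pandas 2.3.3. The probe set brightest on average stood for a gene, and it counted as measured above a geometric mean of 93.9. Steps were tested on simulated data. With 1 array per group, folds of 1.3 and 2 were counted and nothing was tested.

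Named genes were all members and, per surrounding group, up to 3 measured genes with the largest difference at any time. The members and lists were chosen with earlier results of these data known. The same holds for the 3 promoter motifs. 9 alternatives changed the probe set, normalization, floor, filter or scale.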

Additional observations from a re-analysis of the deposited data

Results flagged for a closer look

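Some members had opposite signs against the control at different times, each on 1 array, and none of these differences between times was tested. AMD1 was above the control at 8 h and below it later, a difference of -0.15 (log2) from 8 to 16 h and -0.18 from 8 to 24 h. SMS did the same, with -0.13 and -0.19. The PAOX probe set that stands for the gene was above the control at 8 and 16 h and below it at 24 h, with -0.31 from 8 to 24 h and -0.33 from 16 to 24 h. Its other 3 measured probe sets did not share this: they ranged from -0.22 to 0.14 against the control at 8 h, lay below it at 16 h, and stood between -0.046 and 0.095 in the step from 16 to 24 h.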

How the results depend on the processing

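Of 258 values of single members under 9 alternatives, 249 moved by less than the pooled SD between probe sets of a gene, 9 moved by more, and no value past 1.3-fold changed sign. The alternatives that changed only the floor could not move a member value, since no member value fell under the floor. Those that changed only the filter could drop a member but not move its value. Such values are counted among the 249. ODC1 and SRM stayed at least 1.3-fold lower at 16 and 24 h in 9 of 9 alternatives each. Both have a single probe set, not of the _x_at or _s_at type. Only quantile normalization, median centring and log2(value + 50) could therefore move their values. ODC1 ranged from -0.51 to -0.46 (log2) at 16 h and from -0.55 to -0.44 at 24 h. SRM ranged from -0.50 to -0.45 and from -0.51 to -0.46. SAT1 kept its sign in 8 of 8 and passed 1.3-fold in 5 of 8 at 16 h (0.25 to 0.42) and 7 of 8 at 24 h (0.25 to 0.56). OAZ2 at 16 h passed in 7 of 9 (0.28 to 0.51). One alternative took, on each array, the median log2 level over a gene's probe sets, which for the 3 of SAT1 and of SMOX is the level of a single probe set of middle brightness and not the median of their differences. The count of members higher at 16 h was 1 with this median level, without _x_at and _s_at probe sets, with median centring and with log2(value + 50). The 1 gene was SMOX in the first 2 of these, both times through its dim probe set alone (0.47, where the median of its 3 differences was 0.21), and OAZ2 in the others. At 24 h it was 0 with the first 2 of these. At 8 h it was 1, SAT1, with the median level (0.40, a single probe set) and with quantile normalization (0.39). Among surrounding genes, the count higher at 16 h was 1 with the median level. At 8 h it was 0 with that median, with median centring and with log2(value + 50), and the count lower at 8 h was 0 with that median. Without _x_at and _s_at probe sets 7 members remained, since SMS, SAT1 and OAZ1 have no others, and 9 when means had to exceed the 75th percentile. No detection calls were used, so signal over background was not known.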
